A study of Homo sapiens with 48 samples.

Results

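The cyclins, cyclin-dependent kinases and kinase inhibitors that act in G1 were followed through 48 bulk RNA-seq libraries of Kelly and NGP cells, established human neuroblastoma lines described in the labels as MYCN-amplified and wild type in genotype. The 10 genes, of 19923 in the deposited tables, were picked by symbol: the D-type cyclins CCND1, CCND2 and CCND3, their kinases CDK4 and CDK6, the E-type cyclins CCNE1 and CCNE2, and the inhibitors CDKN1B, CDKN1C and CDKN2C. Cultures received either the solvent DMSO or STM2457 at 8 µM, a compound that blocks the RNA methyltransferase METTL3, and were kept for 3 or 6 days. The cultures were then given 10 µg/ml actinomycin D, which blocks transcription, and collected at 0, 3 or 6 h. Every combination of line, day, treatment and hour was a group of 2 libraries, so there were 24 groups. The comparison of Kelly with NGP sets 1 line against 1 other, and nothing in it separates MYCN or any other single feature from the rest of what differs between them.

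Progress from G1 into S phase is paced by D-type cyclins, which bind CDK4 or CDK6 and start the phosphorylation of the retinoblastoma protein, and then by E-type cyclins, which bind CDK2 and complete it. Phosphorylation releases E2F factors, which switch on the genes of DNA replication. CDKN2C (p18) binds CDK4 and CDK6 directly, whereas CDKN1B (p27) and CDKN1C (p57) bind assembled cyclin and kinase pairs. METTL3 writes N6-methyladenosine on messenger RNA, a mark known for its part in transcript turnover, and in neuroblastoma the MYCN oncoprotein is known to drive cells through G1.

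Libraries held between 11139550 and 21942238 fragments assigned to genes, not counting the ERCC spike-in RNAs. The spike-ins took 0.265% to 0.671% of the fragments on genes and spike-ins together. The labels do not give the spike-in amount per cell or per RNA mass, so values scaled to it need not be absolute amounts. The neuroblastoma markers PHOX2A, HAND2, GATA3, DBH, TH, ISL1 and MYCN each had a mean of at least 1 TPM in both lines. TPM is a transcript level scaled for gene length and library depth. TH was at that cutoff in NGP, with a mean of 1.04 TPM against 499 TPM in Kelly, and DBH had 191 against 2131 TPM. Leukocyte markers summed to at most 2.08 TPM in any library. Endothelial markers summed to at most 4.98 TPM and epithelial markers to at most 8.28 TPM. Mesenchymal markers summed to 2.16 to 20.3 TPM in Kelly and 39.9 to 96.4 TPM in NGP, and their part in the differences between the lines was not tested. The labels do not say whether the 2 libraries of a group came from separate cultures, so p-values measure the spread between these samples. Fewer cells and less RNA per cell cannot be told apart in such libraries.

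Sequences are shown for the genes on which the results turn. The CDK4 promoter is printed because CDK4 was, among the members called between the lines, the one with the largest fold difference. It is the RefSeq window from 250 bases before to 50 bases after a RefSeq start site, chr12:57752261-57752560 on GRCh38.p14, minus strand. This window lies inside the span of CDK4 in the counts (chr12:57747727-57756013), which begins farther upstream. Capitals mark the letters CACGTG, the E-box motif to which MYC family proteins are known to bind.
CDK4 promoter: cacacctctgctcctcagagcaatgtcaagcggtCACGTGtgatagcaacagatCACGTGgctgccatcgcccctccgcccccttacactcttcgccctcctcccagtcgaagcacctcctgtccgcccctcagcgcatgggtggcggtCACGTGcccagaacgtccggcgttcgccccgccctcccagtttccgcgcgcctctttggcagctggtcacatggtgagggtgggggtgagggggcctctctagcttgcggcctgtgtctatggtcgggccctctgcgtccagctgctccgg
The 3 E-boxes begin 216, 196 and 101 bases before that RefSeq start site. At least 1 CACGTG, which reads the same on both strands, was found in 7.26% of 35116 RefSeq promoter windows of this length, and at least 3 in 33 windows, or 0.0940%. RefSeq windows were matched for 6 of the 10 genes (11 windows). Of the others, 1 of 2 CDK6 windows and 2 of 3 CDKN2C windows held 1 E-box, while those of CCND3, CCNE1 and CDKN1B held none. None of the 11 windows held TTTCCCGC, TTTGGCGC, TTTCGCGC or TTTGCCGC on either strand, forms of the E2F motif found in 3.31% of all windows.

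The 3′ untranslated region of CDKN1B is shown in part because CDKN1B was the member whose transcript fell most regularly after actinomycin D. Both matches to TGTANATA, the motif of the Pumilio family of RNA-binding proteins, are printed with the motif in capitals, on hg38, plus strand. The motifs lie at chr12:12721280-12721287, 253 bases after the stop codon, and at chr12:12722096-12722103, 1069 bases after it.
CDKN1B site 1: tgtactacctgTGTATATAgtttttacctt
CDKN1B site 2: aagtgtacctgTGTACATAactctgtaaaa
Among 2309 canonical 3′ regions of like length, from genes tested in Kelly (the CDKN1B region has 1342 bases), 6.89% held as many such motifs. CDKN1B also held 7 ATTTA, the core of AU-rich elements, a number reached by 9.57% of those regions, and no GGACT, a form of the N6-methyladenosine consensus that 68.2% of them hold. The 535-base region of CCNE1, whose transcript also fell, held neither ATTTA nor TGTANATA. The 1408-base region of CCNE2, which was not called lower on the same scale, held 10 ATTTA, a number reached by 2.47% of like regions, and 2 TGTANATA, reached by 7.06%. These motifs were searched after the decay values had been seen, only on the transcribed strand, and a match describes the letters alone.

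In untreated cells the lines differed most in which kinase partner of the D-type cyclins was abundant. Levels between genes are given in TPM in DMSO at 0 h, which divides by gene length. CDK4 (chr12:57747727-57756013, minus strand) stood at 107 and 103 TPM in the Kelly libraries at 3 days and at 1670.0 and 1661 TPM in the NGP libraries. At 6 days it stood at 80.1 and 76.4 TPM in Kelly and at 1263 and 1284 TPM in NGP. Every NGP library was far above every Kelly library, and 99.7% of genes lay below CDK4 in NGP at 3 days. CDK6 (chr7:92604921-92836594, minus strand), the other kinase, ran the opposite way, with 252 and 241 TPM in Kelly and 124 and 114 TPM in NGP at 3 days. CDK6 thus had the higher level of the pair in all 4 Kelly libraries, with a CDK4 to CDK6 ratio of 0.334 to 0.427, and CDK4 in all 4 NGP libraries, with a ratio of 7.86 to 14.6.

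Among the D-type cyclins, CCND1 (chr11:69641156-69654474, plus strand) was the abundant one in both lines. It measured 238 and 219.9 TPM in Kelly and 537 and 561 TPM in NGP at 3 days, the second highest of the 10 genes in each line. CCND3 (chr6:41934933-42050357, minus strand) measured 9.65 and 13.8 TPM in Kelly and 11.6 and 15.9 TPM in NGP, ranges that overlap. CCND2 (chr12:4273762-4305353, plus strand) was close to undetected, with 0 fragments in 16 of 24 Kelly libraries and at most 39 in any NGP library. The E-type cyclins were well below their D-type counterpart CCND1. CCNE1 (chr19:29811991-29824312, plus strand) measured 36.2 and 36.4 TPM in Kelly and 19.2 and 14.9 TPM in NGP. CCNE2 (chr8:94879770-94896678, minus strand) measured 13.3 and 11.6 TPM in Kelly and 21.7 and 17.6 TPM in NGP, so that CCNE1 led in Kelly while the ranges of both cyclins overlapped in NGP.

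Of the inhibitors among the 10 genes, CDKN1B (chr12:12715058-12722369, plus strand) was the most abundant in every untreated group. It measured 79.7 and 101 TPM in Kelly and 80.3 and 80.2 TPM in NGP at 3 days. CDKN2C (chr1:50960745-50974634, plus strand) measured 40.4 and 54.0 TPM in Kelly and 10.3 and 7.84 TPM in NGP, with no overlap. CDKN1C (chr11:2883213-2885773, minus strand) measured 1.26 and 0.434 TPM in Kelly and 0 in both NGP libraries.

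The order from high to low in Kelly at 3 days was CDK6, CCND1, CDK4, CDKN1B, CDKN2C, CCNE1, CCNE2, CCND3, CDKN1C and CCND2, and only CCNE2 and CCND3 overlapped as neighbours. In NGP it was CDK4, CCND1, CDK6, CDKN1B, CCNE2, CCNE1, CCND3, CDKN2C, CCND2 and CDKN1C, and CCNE2, CCNE1 and CCND3 overlapped in turn. At 6 days CDKN1B overlapped CDK4, and CCNE1 overlapped CDKN2C, in Kelly. In NGP CCNE1 overlapped CCNE2, and CCND2 overlapped CDKN1C.

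**Figure D1:**
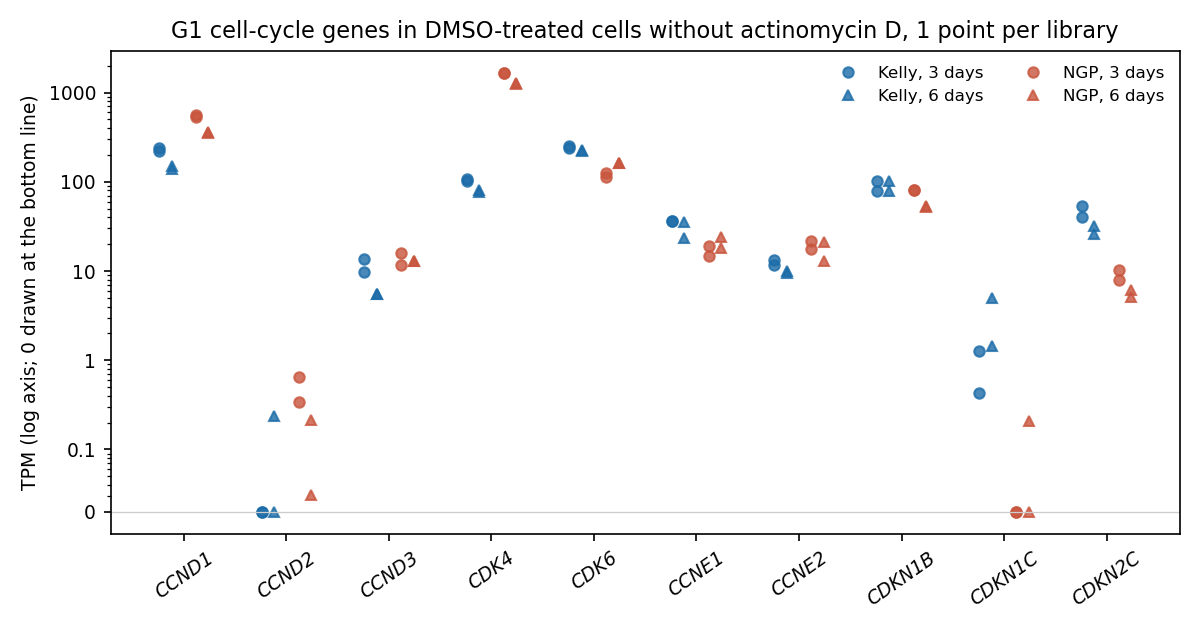
Level of each of the 10 genes in the untreated (DMSO, 0 h) libraries of Kelly and NGP at 3 and 6 days, in TPM on a log axis; points are single libraries. CDK4 lies between 76.4 and 107 TPM in Kelly and between 1263 and 1670.0 TPM in NGP, and CDKN2C is lower in NGP at both days.

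Fitted across all genes, the difference in CDK4 at 3 days was 3.90 ± 0.077 on the log2 scale (SE, adjusted p = 2.56e-51, edgeR quasi-likelihood test with Benjamini-Hochberg adjustment over all genes). At 6 days it was 16.4-fold (log2 4.03 ± 0.078, adjusted p = 5.35e-52). CCND1 was 2.27-fold and 2.49-fold higher in NGP at 3 and 6 days. CDKN2C was 5.51-fold lower in NGP at 3 days (adjusted p = 1.04e-06) and 5.19-fold lower at 6 days. CDK6 was 2.20-fold lower in NGP at 3 days and 1.38-fold lower at 6 days. At the threshold of 0.05 on the adjusted p, 4 of the 10 were called at 3 days, against 30.0% of all genes tested, and 7 of 10 at 6 days, against 31.6%. The calls added at 6 days were CCND3 (log2 1.24, adjusted p = 0.00104), CDKN1B (log2 −0.77, adjusted p = 0.00177) and CCNE2 (log2 0.82, adjusted p = 0.0299). CDKN1B lost its call without the first Kelly library (log2 −0.58), and CCNE2 without either Kelly library (log2 0.77 and 0.87) or the first NGP library (log2 0.43). Under ERCC scaling CCNE2 was not called at 6 days (log2 0.68, adjusted p = 0.0791) and was called at 3 days (log2 0.99, adjusted p = 0.00619). CCNE1 had a log2 difference of −1.17 at 3 days, with an adjusted p just above the threshold, and it was called with no filter, with the replicate block and by DESeq2.

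The genes beside CDK4 on chromosome 12 were also higher in NGP. Of its 10 nearest protein-coding neighbours, 5 on each side, 7 were called higher in NGP at both days and none lower. Among all genes tested, 14.0% were called higher in NGP at 3 days and 15.7% at 6 days. TSPAN31, a tetraspanin gene that overlaps 44.2% of the exonic bases of CDK4 on the opposite strand, was 18.7-fold higher at 3 days, from 12.1 ± 0.186 to 228 ± 18.2 CPM (counts scaled for library depth; SD, n = 2 in each line). The strand used in counting is not given in the sources used here, so reads of CDK4 and TSPAN31 cannot be told apart where the genes overlap. METTL1, which encodes a tRNA methyltransferase, had a log2 difference of 3.09, and CYP27B1, the enzyme that activates vitamin D, of 4.79. Farther out on one side, OS9 was higher by 0.60 on the log2 scale at 3 days, while B4GALNT1 was not called (log2 0.57, adjusted p = 0.0702). On the other side EEF1AKMT3, beyond METTL1, was higher by 3.96. Over the 8 neighbours with at least 1 CPM in both lines the median log2 difference was 2.93 at 3 days and 3.05 at 6 days. For each of the other 9 genes, at most 4 of 10 neighbours were called higher in NGP and at most 5 lower. Copy number was not measured in these data, and its part in the differences was not tested.

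**Figure D2:**
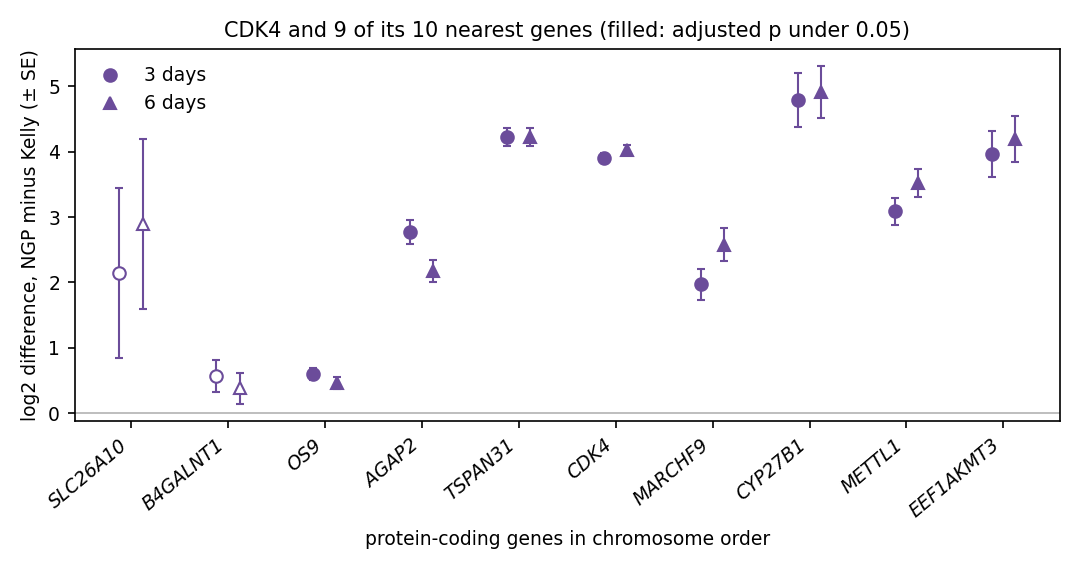
Difference in level between NGP and Kelly (log2, DMSO at 0 h) for CDK4 and 9 of its 10 nearest protein-coding genes, in their order along chromosome 12. Bars are standard errors. Filled points have an adjusted p under 0.05. CDK4 stands at 3.90 and 4.03, and the difference is small for OS9 and B4GALNT1 on one side.

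STM2457 changed few of the 10 genes, and at 3 days none passed the test. In Kelly at 3 days 0 of 10 were called against 1.68% of all genes by edgeR, with 3 at an unadjusted p under 0.05 and 1 called by DESeq2. Of all 16759 genes tested there, 1455 had such a p and DESeq2 called 557. In NGP at 3 days 0 of 9 were called against 3.70% of all genes by edgeR, with 0 at an unadjusted p under 0.05 and 0 called by DESeq2. Of all 14661 genes tested there, 1950 had such a p and DESeq2 called 900. CDKN1C was too low to be tested in NGP. The member called by DESeq2 in Kelly was CDK6, at 796 and 758 CPM in the DMSO libraries and 905 and 881 CPM in the STM2457 libraries. Its log2 difference was 0.20 ± 0.060 (edgeR adjusted p = 0.0538). These groups did not overlap. The replicate block also carried this value past the threshold. Scaled to the ERCC spike-ins, the median gene in Kelly was higher in STM2457 by 0.38 on the log2 scale at 3 days. At 6 days it was lower by 0.21. On that scale 4 of the 10 were called at 3 days: CDKN1B (log2 0.88), CDK6 (0.60), CDK4 (0.56) and CCND1 (0.26). No share of all genes called under ERCC scaling is given, here or below. Counts on that scale are therefore not read as results about the members.

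At 6 days 2 of 10 genes were called in Kelly, against 3.97% of all genes, and 2 of 9 in NGP, against 7.99%. In Kelly both were D-type cyclins. CCND1 stood at 177 and 168 CPM in DMSO and 243 and 248 CPM in STM2457, so both treated libraries lay above both controls. The rise was 1.42-fold (log2 0.51 ± 0.088, adjusted p = 4.05e-06), and 0.25 on the log2 scale (adjusted p = 0.0632) when libraries were scaled to the ERCC spike-ins. CCND1 shares 10.4% of its exonic bases with LTO1 on the opposite strand. CCND3 stood at 7.96 and 8.10 CPM in DMSO and 15.8 and 19.6 CPM in STM2457, also without overlap. Its rise was 2.20-fold (log2 1.14 ± 0.36, adjusted p = 0.0448), a call that was lost when any 1 of these 4 libraries was left out, with log2 values of 0.95 to 1.27, and under ERCC scaling (log2 0.89). CDK6 in Kelly at 6 days was called under ERCC scaling alone among the settings for the whole data (log2 −0.26).

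In NGP both genes called at 6 days were kinases, and they moved apart. CDK4 stood at 957 and 981 CPM in DMSO and 1118 and 1142 CPM in STM2457. The groups did not overlap, and the rise was 1.17-fold (log2 0.22 ± 0.044, adjusted p = 1.39e-04). CDK6 stood at 482 and 495 CPM in DMSO and 372 and 387 CPM in STM2457. Both treated libraries were below both controls, a fall of 1.29-fold (log2 −0.36 ± 0.063, adjusted p = 9.01e-06). CCND1 in NGP, at 408 and 426 CPM in DMSO and 432 and 499 CPM in STM2457, had a log2 difference of 0.16 ± 0.059 that did not pass (adjusted p = 0.0899), but did without the first STM2457 library (log2 0.26).

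**Figure D3:**
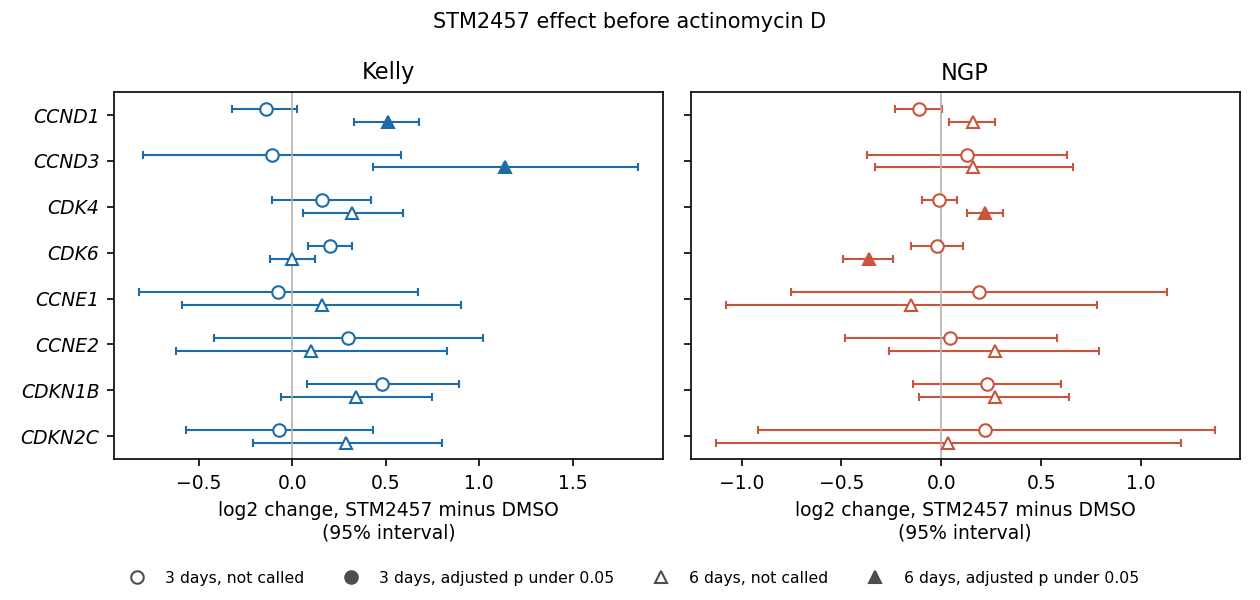
Log2 difference between STM2457 and DMSO at 0 h for the G1 genes in each line and at each day, with 95% confidence intervals. Those past the threshold are CCND1 (0.51) and CCND3 (1.14) in Kelly and CDK4 (0.22) and CDK6 (−0.36) in NGP, all at 6 days.

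The controls themselves moved between 3 and 6 days in the genes called at 6 days. CCND1 in Kelly fell in DMSO from 292 and 268 CPM to 177 and 168 CPM (log2 −0.70 ± 0.088, adjusted p = 3.02e-11), while the STM2457 libraries went from 257 and 249.7 CPM to 243 and 248 CPM (log2 −0.046 ± 0.087, adjusted p = 0.999). On this relative scale the treated libraries at 6 days lay close to their level at 3 days. Under ERCC scaling CCND1 fell alike in both, with a log2 change of −0.32 in STM2457 (adjusted p = 0.00606) and −0.32 in DMSO (adjusted p = 0.00588). CCND3 in Kelly fell in DMSO from 14.4 and 20.5 CPM to 7.96 and 8.10 CPM (log2 −1.12 ± 0.36, adjusted p = 0.0285), and in STM2457 it measured 17.8 and 14.6 CPM at 3 days. CDK4 in NGP fell in DMSO from 1209 and 1219.7 CPM to 957 and 981 CPM (log2 −0.33 ± 0.044, adjusted p = 1.03e-08), and the STM2457 libraries went from 1218 and 1196 CPM to 1118 and 1142 CPM (log2 −0.095 ± 0.044, adjusted p = 0.291). Under ERCC scaling CDK4 was called lower in both, by a log2 change of −0.41 in STM2457 and −0.50 in DMSO. CDK6 in NGP did the reverse, with a rise in DMSO from 356 and 330.2 CPM to 482 and 495 CPM (log2 0.51 ± 0.063, adjusted p = 6.13e-10). In STM2457 it went from 342 and 335 CPM to 372 and 387 CPM (log2 0.16 ± 0.063, adjusted p = 0.135). These comparisons share the DMSO libraries at 6 days with the effect of STM2457 at that day, so the values are set side by side and are not independent of it.

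Between 3 and 6 days in DMSO, 3 of 10 genes were called in Kelly, against 8.52% of all genes, all lower, the third being CDK4 (log2 −0.46 ± 0.13, adjusted p = 0.0136). In NGP 4 of 9 were called, against 12.1%, with CDK6 higher and CDK4, CCND1 (log2 −0.56 ± 0.059) and CDKN1B (log2 −0.55 ± 0.19, adjusted p = 0.0385) lower. The calls of CDK4 in Kelly and CDKN1B in NGP were lost when any 1 of their 4 libraries was left out, and that of CCND3 in Kelly when any but the first at 3 days was. In STM2457 the same interval gave 1 of 10 in Kelly, against 2.39% of all genes, and 1 of 9 in NGP, against 5.48%. These were CDK6 in Kelly, which fell by 0.36 ± 0.060 on the log2 scale (adjusted p = 2.67e-06), and CCND1 in NGP, which fell by 0.29 ± 0.059 (adjusted p = 1.89e-04). Without the first STM2457 library at 6 days the CCND1 value was −0.20 and its call was lost. ERCC scaling, which put the median gene of Kelly in DMSO at 0.35 between the days, ended the calls of CCND3 (log2 −0.74) and CDK4 (log2 −0.076) in that line.

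The difference between the effect at 6 days and that at 3 days was tested directly. In Kelly 1 of 10 genes passed, against 0.788% of all genes: CCND1, whose effect was 1.57-fold larger at 6 days (log2 0.65 ± 0.12, adjusted p = 1.80e-04). Scaled to the ERCC spike-ins, by which the median gene's effect was lower at 6 days by 0.62 on the log2 scale, the CCND1 difference was −0.0024. In NGP 2 of 9 passed, against 2.80%: CDK4 (log2 0.23 ± 0.063, adjusted p = 0.0199) and CDK6 (log2 −0.34 ± 0.089, adjusted p = 0.0120). The CDK4 call was lost in 5 of the 8 fits that each left out 1 library, with log2 values of 0.21 to 0.24 in those fits, and the CDK6 call in 3 of 8, with log2 values of −0.33 to −0.29. ERCC scaling gave 0.089 for CDK4, which ended its call. For CCND1 in NGP the value was 0.27 ± 0.083 (adjusted p = 0.0603).

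The difference of the effect between the lines was also tested. At 3 days 0 of 10 genes passed, against 0.161% of all genes by edgeR, with 1 at an unadjusted p under 0.05 and 0 called by DESeq2. Of all 17343 genes tested, 815 had such a p and DESeq2 called 64. At 6 days 1 of 10 passed, against 1.75%: CDK6, whose log2 effect was lower in NGP by 0.34 ± 0.086 (adjusted p = 0.0143). This call was lost in 4 fits that each left out 1 of 8 libraries, with log2 values of −0.33 to −0.31, and under ERCC scaling (log2 −0.15). CCND1 had a difference of −0.33 ± 0.098 that did not pass (adjusted p = 0.0651).

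Apart from CDKN1B under ERCC scaling, above, the inhibitors were not called at either day, and the E-type cyclins were not either. CDKN1B in Kelly at 3 days stood at 52.5 and 66.5 CPM in DMSO and 88.9 and 77.3 CPM in STM2457, a log2 difference of 0.48 ± 0.21 (adjusted p = 0.383). Its 4 log2 values ran from 0.23 to 0.48, all above 0. Over the 6 combinations of day and hour, both STM2457 libraries lay above both DMSO libraries for CDKN1B in 4 in Kelly and 5 in NGP, and below them in none. As many or more, with none below, were found for 6.95% of genes tested in Kelly and 4.64% in NGP. For CDKN2C the treated libraries were above in 4 of 6 in Kelly with none below, a count that the same 6.95% of genes reached, and in 1 of 6 in NGP. For CDK4 they were above in 4 of 6 in each line, with 1 below in Kelly. The share of all genes with such counts as those of CDK4 was not computed, so they are not read as above the background. CCNE1 ran from −0.15 to 0.19 and CCNE2 from 0.046 to 0.30 over both lines and days. CCNE2 shares 37.0% of its exonic bases with INTS8 on the opposite strand, so its values are uncertain in the same way as those of CDK4.

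CDKN1C, the inhibitor near the limit of detection, was scarcer in the STM2457 libraries of Kelly at every day and hour. In DMSO at 3 days its fragments were 13 and 4 at 0 h, 37 and 14 at 3 h, and 4 and 17 at 6 h. In STM2457 at 3 days it had no fragment in 5 of 6 libraries and 4 fragments in the other. At 6 days the DMSO libraries held 19 and 48, 51 and 30, and 30 and 67 fragments, and the STM2457 libraries 1 and 14, 3 and 2, and 0 and 0. The sums were 334 fragments over 12 DMSO libraries and 24 over 12 STM2457 libraries. Both treated libraries were below both controls in 6 of 6 combinations, which was so for 1.48% of the genes tested in Kelly, while edgeR called the gene in no single comparison of treatments at 0 h (adjusted p = 0.395 and 0.761). In NGP CDKN1C had 18 fragments over 12 DMSO libraries and 4 over 12 STM2457 libraries. CCND2, the other scarce gene, had 23 and 59 fragments in Kelly and 90 and 63 in NGP, in DMSO and STM2457 respectively. It shares 13.9% of its exonic bases with AC008012.1 on the same strand.

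After actinomycin D the inhibitor CDKN1B fell in all 8 series of line, day and treatment, the cyclin CCNE1 in 7, and the inhibitor CDKN2C in the DMSO series of Kelly. CCND1, CDK4 and CDK6 were called higher relative to other transcripts in 5 to 7 of the 8 series, a direction that turned in most groups under scaling to the ERCC spike-ins. The CPM values are relative to a library in which all transcripts age, so a value above that at 0 h means slower loss than the typical gene. Scaled to the ERCC RNAs, the median gene fell after 6 h in DMSO by 0.34 and 1.18 on the log2 scale in Kelly at 3 and 6 days and by 0.81 and 1.10 in NGP. In STM2457 these median falls were 0.72 and 0.45 in Kelly and 0.64 and 0.67 in NGP. After 3 h in DMSO they were 0.55 and 0.64 in Kelly and 0.37 and 0.45 in NGP. In Kelly at 3 days in DMSO the median fall was thus larger at 3 h than at 6 h, though transcription was blocked. The sign of a value under ERCC scaling is therefore not taken as true loss or gain.

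In Kelly at 3 days in DMSO it went from 52.5 and 66.5 CPM at 0 h to 29.5 and 27.6 CPM at 3 h and 14.6 and 21.2 CPM at 6 h. In Kelly at 3 days in STM2457 it went from 88.9 and 77.3 CPM to 37.2 and 31.6 CPM and then 13.6 and 21.9 CPM. The 3 times did not overlap in either series, and the treated libraries, the higher at 0 h, overlapped the controls at 6 h. The 6 h change in DMSO was −1.73 ± 0.22 on the log2 scale (3.32-fold lower, adjusted p = 2.71e-12), and in STM2457 it was −2.23 ± 0.22 (4.69-fold lower, adjusted p = 3.28e-18). In NGP at 3 days in DMSO CDKN1B went from 48.2 and 48.8 CPM to 34.0 and 35.5 CPM and then 28.2 and 25.2 CPM. That fall, 1.82-fold (log2 −0.86 ± 0.19, adjusted p = 1.14e-04), was smaller in value than the Kelly one, but the difference between the lines was not tested. At 6 days the log2 values were −1.77 and −2.31 in Kelly, in DMSO and STM2457, and −1.10 and −0.73 in NGP. The last of these lost its call without the second NGP library at 6 h (log2 −0.59).

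CCNE1, the E-type cyclin, had low counts and large falls. In Kelly at 3 days in DMSO it went from 22.9 and 23.0 CPM to 12.9 and 14.4 CPM at 3 h and 6.26 and 3.87 CPM at 6 h, each step below the one before. The 6 h change was −2.18 ± 0.41 on the log2 scale (4.53-fold lower, adjusted p = 2.19e-06). It was called in 7 of 8 series, with log2 values of −2.77 to −1.63. The exception was Kelly at 6 days in DMSO, at 21.9 and 14.6 CPM at 0 h and 7.87 and 12 CPM at 6 h (log2 −0.88 ± 0.39, adjusted p = 0.0808), which was called under ERCC scaling (log2 −2.15), as were the other 7. In NGP its STM2457 calls were lost without the second 6 h library at 3 days (log2 −1.08) and without the first at 6 days (log2 −1.35). CCNE2, its partner gene, was called in none of the 8, with log2 values between −0.33 and 0.24. Under ERCC scaling it was called lower in 5: Kelly at 3 days in STM2457 (log2 −1.17) and at 6 days in DMSO (−1.07), and NGP at 3 days in DMSO (−0.83) and at 6 days in DMSO (−1.27) and STM2457 (−0.87).

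CDKN2C differed in value between treatments in Kelly. In DMSO at 3 days it went from 31.3 and 41.7 CPM to 26.4 and 35.6 CPM and then 18.3 and 17.1 CPM, a fall of 2.06-fold (log2 −1.05 ± 0.26, adjusted p = 5.24e-04). In STM2457 it went from 35.7 and 33.9 CPM to 42.6 and 31.8 CPM and then 30.9 and 30.8 CPM (log2 −0.17 ± 0.25, adjusted p = 0.682). At 6 h the treated libraries lay above the controls, and at 0 h the groups overlapped. At 6 days the DMSO fall was 2.15-fold (log2 −1.11 ± 0.27, adjusted p = 3.77e-04), lost without the second 6 h library (log2 −0.70), and the STM2457 value was −0.29 ± 0.26. The difference of the changes did not pass the test at 3 days (log2 0.87 ± 0.36, adjusted p = 0.488) or at 6 days (log2 0.82 ± 0.37, adjusted p = 0.525). Under ERCC scaling the CDKN2C falls in STM2457 passed the test at both days (log2 −1.02 and −0.87), and so did the difference at 6 days (log2 1.51). In NGP, where CDKN2C was scarcer, no change was called, with −1.04 in DMSO and −1.44 in STM2457 at 3 days and −0.74 and 0.18 at 6 days. The NGP difference of the changes was −0.41 ± 0.83 at 3 days, opposite in sign to that in Kelly, and 0.92 ± 0.83 at 6 days, and neither passed. Under ERCC scaling the NGP falls in DMSO at both days (log2 −1.85 and −1.79) and in STM2457 at 3 days (log2 −2.11) were called.

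CCND1 was called higher at 6 h in 7 of 8 series relative to other transcripts, and under ERCC scaling its value was below 0 in 7 of 8, all but Kelly at 6 days in STM2457 (0.025). In NGP at 3 days in DMSO it went from 598 and 634 CPM to 783 and 794 CPM and then 981 and 994 CPM, with no overlap between times. The change was 1.60-fold (log2 0.68 ± 0.059, adjusted p = 7.15e-17), and under ERCC scaling it was −0.12. In Kelly at 3 days in DMSO, the series that was not called, CCND1 stood at 292 and 268 CPM at 0 h and 307 and 336 CPM at 6 h (log2 0.20, adjusted p = 0.0736). CDK4 was called higher in 5 of 8 series relative to other transcripts, with all 8 values below 0 under ERCC scaling. Its call in Kelly, at 3 days in DMSO, was lost without either 0 h library or the first 6 h library (log2 0.34 to 0.42). In NGP at 3 days in DMSO it went from 1209 and 1219.7 CPM to 1517 and 1611 CPM and then 1642 and 1683 CPM (log2 0.45 ± 0.044, adjusted p = 2.19e-14; −0.35 under ERCC scaling). CDK6 was called higher in 7 of 8 series, with 7 of 8 values below 0 under ERCC scaling, all but Kelly at 3 days in DMSO (0.16). CCND3 was called in 1 of 8, Kelly at 3 days in STM2457, at 17.8 and 14.6 CPM at 0 h and 10.7 and 5.73 CPM at 6 h. That fall (log2 −0.97 ± 0.36, adjusted p = 0.0300) lost its call without the second 6 h library (log2 −0.59) or without either 0 h library (log2 −0.82 and −1.12).

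**Figure D4:**
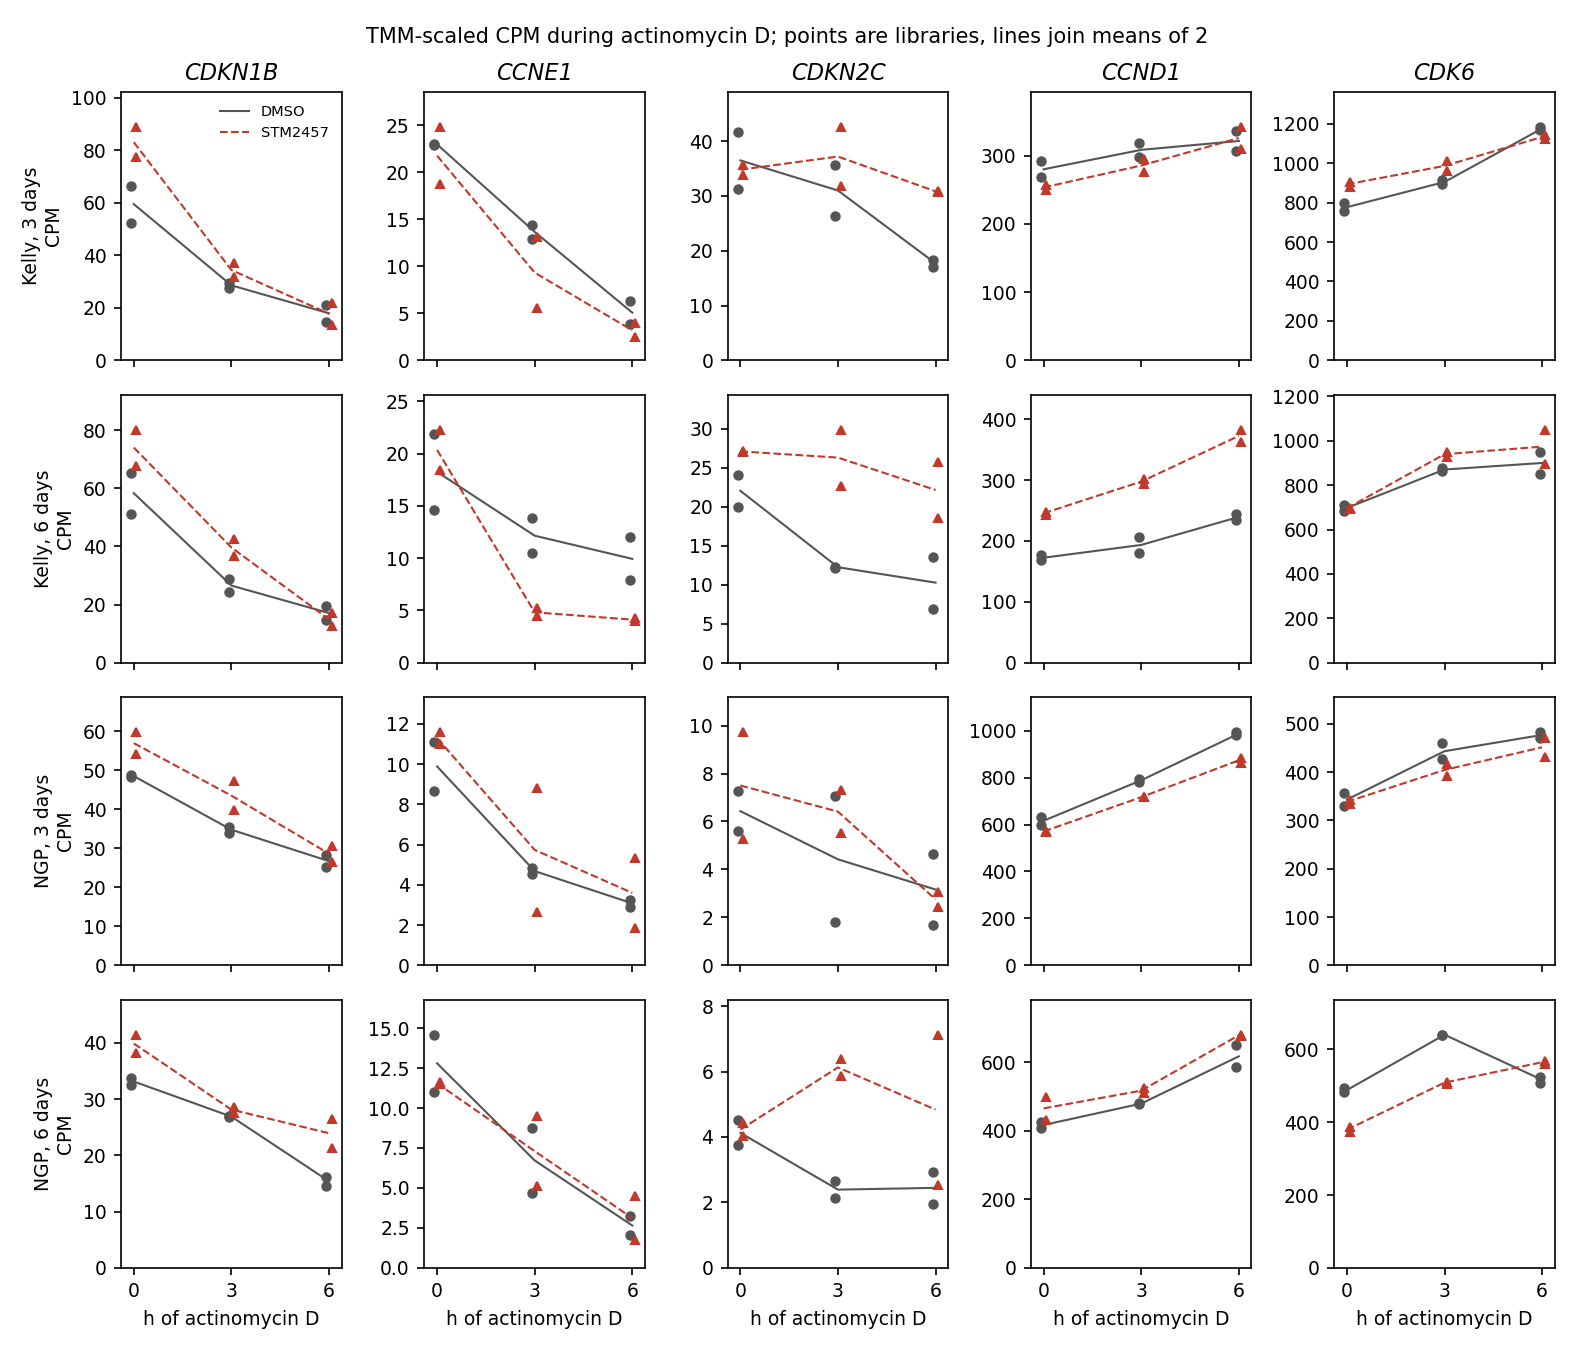
Level (CPM) of CDKN1B, CCNE1, CDKN2C, CCND1 and CDK6 at 0, 3 and 6 h of actinomycin D in each line and day; points are single libraries, lines join means, DMSO is solid and STM2457 dashed. CDKN1B falls in every panel, for example from 52.5 and 66.5 to 14.6 and 21.2 in Kelly at 3 days in DMSO; CCND1 and CDK6 are higher at 6 h in most panels on this relative scale and below 0 h in most under ERCC scaling.

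At 6 h in DMSO 5 of 10 genes were called in Kelly at 3 days, against 30.1% of all genes, and 4 of 10 at 6 days, against 26.5%. In NGP 5 of 9 were called at 3 days, against 37.4%, and 4 of 9 at 6 days, against 36.7%. In STM2457 the counts at 6 h were 5 of 10 in Kelly at 3 days, against 26.9%, and 4 of 10 at 6 days, against 26.4%. In NGP they were 5 of 9 at 3 days, against 32.5%, and 5 of 9 at 6 days, against 32.1%. Counts of 4 or 5 among 9 or 10 genes are too small to be read as standing above the background.

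The early part of the decay, 3 h against 0 h in DMSO, gave 3 of 10 calls in Kelly at 3 days, against 19.9% of all genes, and 3 of 10 at 6 days, against 18.2%. In NGP it gave 4 of 9 at 3 days, against 24.1%, and 3 of 9 at 6 days, against 21.4%. CDKN1B was called lower at 3 h in Kelly at both days (log2 −1.06 ± 0.21 and −1.13 ± 0.21) and in NGP at 3 days (log2 −0.48 ± 0.19, adjusted p = 0.0476), where leaving out any 1 of the 4 libraries ended the call. CDKN2C was called lower in Kelly at 6 days (log2 −0.85 ± 0.26, adjusted p = 0.0112), a call lost without any but the second 0 h library. CCNE1 was not called at 3 h in any of the 4, with log2 values of −1.07 to −0.59, but was called lower in all 4 under ERCC scaling (log2 −1.45 to −1.26). CDK6 was called higher in all 4 relative to other transcripts (log2 0.22 to 0.39), in Kelly at 3 days not without the second 0 h library (log2 0.17), and its value was below 0 in all 4 under ERCC scaling.

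Whether STM2457 altered the change over 6 h was tested as a difference of differences. By edgeR 0 of 10 genes passed in Kelly at 3 days, against 0.221% of all genes, with 2 at an unadjusted p under 0.05 and 0 called by DESeq2. Of all 16759 genes tested, 1375 had such a p and DESeq2 called 96. At 6 days in Kelly 0 of 10 passed, against 0.424%, with 4 at an unadjusted p under 0.05 and 0 called by DESeq2. Over all genes these numbers were 1378 and 179. In NGP at 3 days 0 of 9 passed by edgeR, against 0.703%, with 0 at an unadjusted p under 0.05 and 0 called by DESeq2. Over all 14661 genes they were 1348 and 167. At 6 days in NGP 1 of 9 passed, against 2.54%, and this was CDK6. The DMSO libraries of CDK6 went from 482 and 495 CPM at 0 h to 640.1 and 641 CPM at 3 h and back to 524 and 509 CPM at 6 h. The STM2457 libraries went from 372 and 387 CPM to 512 and 506 CPM and on to 569 and 561 CPM. The treated libraries were thus below the controls at 0 and 3 h and above them at 6 h. The difference was 0.49 ± 0.089 on the log2 scale (1.41-fold, adjusted p = 7.54e-05), and 0.92 under ERCC scaling. Part of it rests on the same 0 h libraries that gave the lower level of CDK6 in STM2457 above.

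The remaining genes of the pathway were read from a list of 34, among them CDK2, the E2F factors, the retinoblastoma family and the ubiquitin ligase subunits that degrade the inhibitors. In Kelly STM2457 changed 1 of 34 at 3 days, lower, against 1.68% of all genes, and 5 of 34 at 6 days, all higher, against 3.97%. CDKN1A, the p21 inhibitor, was the gene that fell in Kelly at 3 days, from 70.0 ± 0.187 to 40.4 ± 7.71 CPM (SD, n = 2; log2 −0.79 ± 0.21, adjusted p = 0.0202), a call lost without either DMSO library or the first STM2457 library. It is a relative of CDKN1B, whose values in STM2457 ran the other way without being called. At 6 days in Kelly E2F2, an activating E2F factor, rose from 39.5 ± 2.32 to 76.1 ± 1.19 CPM (log2 0.95 ± 0.21, adjusted p = 0.00110), and CKS1B, a cofactor in the degradation of p27, from 42.6 ± 2.45 to 66.0 ± 2.76 CPM (log2 0.63 ± 0.15, adjusted p = 0.00149). CABLES1, which encodes a cyclin-dependent kinase adaptor, rose from 30.6 ± 0.482 to 59.2 ± 5.94 CPM (log2 0.96 ± 0.22, adjusted p = 0.00169). The Kelly calls at 6 days were all lost without the second DMSO library, and some were lost without either STM2457 library. No share of all genes called is given for fits that left out 1 library, here or below. ERCC scaling called 12 of the 34 in Kelly at 3 days, a count without the share of all genes beside it.

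In NGP 1 of 33 tested pathway genes was called at 3 days, against 3.70% of all genes, and this was CDKN1A (log2 −1.70 ± 0.28, adjusted p = 1.49e-05). At 6 days 4 were higher and 1 lower, against 7.99% of all genes called. CDKN1A fell from 46.0 ± 0.984 to 10.2 ± 2.44 CPM at 6 days (log2 −2.17 ± 0.28, adjusted p = 5.92e-09). CCNA2, the S phase cyclin, rose from 76.8 ± 7.11 to 111 ± 2.05 CPM (log2 0.53 ± 0.11, adjusted p = 5.98e-04), and TFDP1, the dimer partner of E2F factors, from 116 ± 6.25 to 149 ± 11.4 CPM (log2 0.36 ± 0.099, adjusted p = 0.0110). The NGP count at 6 days was lower without the second DMSO library or either STM2457 library, and it was 2 under ERCC scaling. No pathway gene was called in a difference of decay by edgeR in either line (0 in each of the 4 tests, with 2, 2, 2 and 3 at an unadjusted p under 0.05, and 1 called by DESeq2 in NGP at 6 days). Over all genes 1375 and 1378 of 16759 in Kelly and 1348 and 1774 of 14661 in NGP had such a p. DESeq2 called 593 genes in NGP at 6 days.

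Of 16 target genes of S phase entry, which encode the replication licensing and nucleotide synthesis proteins, 14 were higher in STM2457 in Kelly at 6 days and 7 in NGP, against 2.70% and 4.45% of all genes called higher, and none was lower. The Kelly count was 8 under ERCC scaling, and it was also lower without the first STM2457 library. In DMSO between 3 and 6 days 15 of 16 fell in Kelly and 14 of 16 in NGP, against 5.74% and 6.72% of all genes called lower. In STM2457 over the same interval 3 fell in Kelly and 1 in NGP, against 1.19% and 2.31% of all genes, and none rose. ERCC scaling called 12 and 13, again without the share of all genes on that scale. The NGP count in DMSO was lower without the first library at 3 days or the first at 6 days. In STM2457 the NGP count was higher without the first library at 6 days. The median log2 values of the list in DMSO were −0.73 and −0.42, against medians of 0 and 0.0066 over all genes. Both comparisons share the DMSO libraries at 6 days.

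Over the 24 libraries of each line, the patterns most like those of each gene were sought among 8462 genes, ranked by the smaller of the Pearson correlations of log2 CPM in both lines. The libraries share treatments and times of actinomycin D, so these values describe the design as much as the genes. For CDKN1B the nearest were CCNF (r = 0.923 in Kelly and 0.911 in NGP) and CUL1 (0.902 and 0.902), and for CDK4 they were HCFC1 (0.922 and 0.938) and HMGB1 (0.922 and 0.928). For CCND1 they were MYBL2 (0.886 and 0.877) and CHD3 (0.876 and 0.897). For CDK6 they were DDX21 (0.825 and 0.830) and GFRA1 (0.821 and 0.865), and for CCNE1 SLC38A2 (0.834 and 0.846) and EFNB2 (0.832 and 0.835). For CDKN2C the nearest was TCF19 (0.771 and 0.722). CCND2, CCND3 and CCNE2 had weaker likenesses, with no r above 0.635.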

How the data were processed

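The deposited files hold raw counts of fragments per gene, whole numbers written by featureCounts 1.5.3 per the file headers, 1 table per library. HISAT2 2.1.0, Trimmomatic 0.36 and the build hg38 are named in the submitters' processing notes, and the GENCODE 33 annotation with 92 ERCC sequences in the file headers. The strand setting is not given in the sources used here. Overlapping genes were therefore treated as uncertain.

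All 24 libraries of a line, or all 48 for comparisons between lines, entered 1 fit with a mean per group: edgeR 4.0.16 (R 4.3.3) quasi-likelihood tests, TMM scaling without ERCC rows, filterByExpr with a minimum count of 10, and Benjamini-Hochberg adjustment over all genes tested (16759 in Kelly, 14661 in NGP, 17343 jointly), called at 0.05. Errors of log2 changes are standard errors. TPM used the Length column of the files. Alternatives were RLE size factors, ERCC scaling, no filter, a replicate block, DESeq2 1.42.0 and leaving out each library. On simulated counts the Kelly fit at 3 days recovered 64% of 2-fold and 89% of 4-fold changes, and the NGP fit at 3 days 76% and 97%, of 100 genes each. The changed genes were well counted ones, and counts were drawn with the spread that the fit itself estimated. The rates therefore do not cover scarce genes such as CCND2 and CDKN1C, or changes below 2-fold.

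The 10 members were tested in every comparison, except CDKN1C in those within NGP, and not every value is given. Named besides are up to 3 called pathway genes with the smallest adjusted p, the neighbours of CDK4 (5 on each side) and the 2 genes of most similar pattern with at least 10 CPM in both lines. Members and lists were chosen with earlier results of these data known. The comparisons of 6 with 3 days within a treatment, the counts of non-overlapping groups and the search of 3′ regions (GENCODE 44 canonical transcripts) were added after seeing the data.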

Additional observations from a re-analysis of the deposited data

Results flagged for a closer look

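In Kelly, the effect of STM2457 on CCND1 differed between 6 and 3 days by a log2 value of 0.65, by a direct test of the difference between the days. In NGP the same test set the effect on CDK4 apart by 0.23 and that on CDK6 by −0.34. The effect on CDK6 at 6 days also differed between the lines, by −0.34 in NGP relative to Kelly. The CDK4 and both CDK6 differences lost their calls in some of the fits that left out 1 library, as given with the results above. Under ERCC scaling the CCND1 difference in Kelly was −0.0024, the CDK4 difference 0.089 and the CDK6 difference between the lines −0.15, none of them called, while the CDK6 difference between the days in NGP was −0.49 and called.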

How the results depend on the processing

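Scaling to the ERCC spike-ins changed most. It gave another sign to 88 of 287 values, 41 of them called under TMM or ERCC scaling, and RLE size factors, DESeq2, dropping the filter and the replicate block turned no value that was called. One factor per library moves all its genes alike, so the turned values are those near 0 or smaller than the shift. For STM2457 against DMSO in Kelly at 3 days CCND1 became 0.26. After 6 h of actinomycin D in DMSO it gave, for CCND1, CDK4 and CDK6 in that order, −0.24, −0.045 and no turn (Kelly, 3 days), −0.80, −0.96 and −0.91 (Kelly, 6 days, with CCNE2 at −1.07), −0.12, −0.35 and −0.33 (NGP, 3 days, with CCND3 at −0.77) and −0.49, −0.58 and −0.97 (NGP, 6 days, with CCND3 at −0.57). After 6 h in STM2457 the same genes had −0.48, −0.55 and −0.50 in Kelly at 3 days, −0.041, −0.13 and −0.24 in NGP at 3 days, and −0.080, −0.20 and −0.052 in NGP at 6 days, and CDK6 had −0.089 in Kelly at 6 days. After 3 h in DMSO they had −0.44, −0.16 and −0.36 (Kelly, 3 days), −0.52, −0.36 and −0.36 (Kelly, 6 days) and −0.019, −0.011 and −0.0069 (NGP, 3 days), and CCND1 −0.26 and CDK6 −0.067 in NGP at 6 days. In the differences of decay at 6 days CDK4 became 0.68 in Kelly and 0.38 in NGP, and CCND1 0.41 in NGP. The difference of the effect between days for CCND1 in Kelly became −0.0024, and CDK6 in Kelly DMSO between days 0.22.

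Under ERCC scaling the number of the 10 genes called in Kelly became 4 for STM2457 at 3 days and 1 at 6 days, 8 for the 6 h change in STM2457 at 3 days, 7 for that in DMSO at 6 days, 5 and 6 for the 3 h change at 3 and 6 days, and 2 and 4 for the differences of decay. In NGP it became 8 for the 6 h change in DMSO at both days, 2 for the 3 h change at 3 days and 4 for the difference of decay at 6 days. For the difference of the effect between days it became 2 in Kelly and 1 in NGP. For the difference of the effect between lines it became 2 at 3 days and 0 at 6 days, and between days in STM2457 3 in each line. These counts have no share of all genes called under ERCC scaling beside them, so they are not read as results about the members. The cause of these moves beyond the scaling was not tested. STM2457 at 3 days in Kelly gave 1 call with the replicate block and 1 with DESeq2. At 6 days in Kelly it gave 1 with RLE size factors and 1 with no filter. DESeq2 gave 2 for the difference of the effect between lines at 6 days and 3 between days in STM2457 in NGP. Ordered by CPM, without length, 2 Kelly genes stood at another rank at 3 days and 4 at 6 days, and for NGP the numbers were 2 and 5.

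Leaving out 1 library at a time moved some counts of members called. These were the counts for STM2457 in Kelly at 6 days and for the 3 h change in Kelly at 3 days. The counts for the difference of the effect between days in NGP, and between lines at 6 days, moved too. So did those between days in Kelly DMSO and between days in STM2457 in NGP. Such fits assume that the remaining library of a group varies like the others. Same-numbered libraries did not deviate together (no correlation over 0.1 among 66 pairs of groups in each line), so the numbers are not taken as pairs. The replicate block moved 5 values past the threshold and ended no call.

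Groups of 2 limit every gene, and counts of a few fragments limit CDKN1C and CCND2 most. In NGP CCNE1 and CDKN2C also had low counts, down to 28 and 27 fragments. CCND3 in Kelly went down to 88.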
